A study of Mus musculus with 3 samples.

Results

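The genes described here are 7 members of the Eph and ephrin families, chosen by symbol from the 27998 genes counted in every library: the EphA receptor genes Epha3, Epha4, Epha6 and Epha7, the EphB receptor gene Ephb4, and the ligand genes Efnb2 and Efna5. Each was found once in each of the 3 libraries. The study sequenced RNA from single nuclei of whole mouse hearts at embryonic day 9.5. It compared hearts that were wild type for the sodium-calcium exchanger gene Ncx1 (alias of Slc8a1), written Ncx1+/+, with heterozygous (Ncx1+/-) and homozygous mutant (Ncx1-/-) hearts. The hearts were frozen, 5 of each genotype were pooled, intact nuclei were collected on a flow sorter, and each pool gave 1 library. No treatment is named in the labels, and the sources used here do not state which part of the gene the mutant allele lacks.

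Eph receptors are receptor tyrosine kinases, and ephrins are their membrane-bound ligands, so signals pass only between touching cells and can run in both directions. EphA receptors mainly bind ephrin-A ligands, which are held by a lipid anchor, and EphB receptors mainly bind ephrin-B ligands, which span the membrane. EphA4 also binds ephrin-B ligands. In blood vessels ephrin-B2 marks arteries and its receptor EphB4 marks veins, and mice without either die in midgestation with failed vessel and heart development. EphA3 is known for its part in the endocardial cushions, the swellings of matrix and mesenchyme that form valves and septa.

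The 7 genes lie on 6 chromosomes of the mouse build GRCm38 (mm10), and the annotation gives each as protein coding. Epha3 (chr16:63543534-63864175) and Epha6 (chr16:59653483-60605531) share a chromosome and the minus strand. Epha4 (chr1:77367185-77515088), Efnb2 (chr8:8617434-8661242) and Efna5 (chr17:62604184-62881317) are also on the minus strand, and Epha7 (chr4:28813131-28967499) and Ephb4 (chr5:137350109-137378669) on the plus strand. Antisense genes overlap Epha6 (Gm9017) and Epha7 (Gm11915), and Zan overlaps Ephb4 on the other strand. The sources used here do not state whether counting used strand, so counts of these overlapping genes cannot be told apart.

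The 250 bases before the RefSeq start (GRCm38.p6) are shown for 4 members whose patterns across nuclei anchor the results below: Epha3 and Epha4, highest within the endocardial lineage in cushion-type nuclei, and Ephb4 and Efnb2, a receptor and its ligand that followed each other across clusters. All 7 members had such a window. Capitals mark a match to a motif searched on both strands. For the core of the hypoxia response element, which factors induced at low oxygen bind, the letters were ACGTG. For the motif of GATA factors, which act in heart and blood cells, they were AGATAA. For the motif of SOX factors, which act in endothelium and cushion mesenchyme, they were ACAAT. For the E-box, which Snail and Twist family factors bind among others, they were CAGGTG.
Epha3 (chr16:63864176-63864425, minus strand): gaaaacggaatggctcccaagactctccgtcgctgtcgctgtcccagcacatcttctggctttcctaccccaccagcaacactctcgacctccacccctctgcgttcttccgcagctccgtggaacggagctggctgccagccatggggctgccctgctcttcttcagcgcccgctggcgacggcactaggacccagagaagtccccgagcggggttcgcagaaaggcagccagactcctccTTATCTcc
Epha4 (chr1:77515089-77515338, minus strand): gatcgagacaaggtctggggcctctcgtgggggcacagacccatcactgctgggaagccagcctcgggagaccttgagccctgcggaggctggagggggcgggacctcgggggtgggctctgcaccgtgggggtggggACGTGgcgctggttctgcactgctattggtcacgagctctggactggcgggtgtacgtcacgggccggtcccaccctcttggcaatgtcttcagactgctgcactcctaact
Ephb4 (chr5:137349859-137350108, plus strand): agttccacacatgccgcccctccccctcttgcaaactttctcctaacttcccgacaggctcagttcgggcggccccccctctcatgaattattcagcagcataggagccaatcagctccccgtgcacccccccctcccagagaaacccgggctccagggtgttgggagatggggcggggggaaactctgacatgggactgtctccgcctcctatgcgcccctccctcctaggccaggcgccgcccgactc
Efnb2 (chr8:8661243-8661492, minus strand): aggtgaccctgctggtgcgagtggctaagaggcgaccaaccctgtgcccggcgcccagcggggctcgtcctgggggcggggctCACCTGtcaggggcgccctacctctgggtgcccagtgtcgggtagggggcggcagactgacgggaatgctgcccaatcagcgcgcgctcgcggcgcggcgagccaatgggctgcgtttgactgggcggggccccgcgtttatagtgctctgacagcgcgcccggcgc
The GATA motif was found in 1 of 7 members (Epha3), the hypoxia core in 1 (Epha4), the E-box in 1 (Efnb2) and the SOX motif in 0. Among all 32851 windows of the same length, 9.99% held the GATA motif, 16.6% the hypoxia core, 17.2% the E-box and 27.7% the SOX motif. Ephb4 and Efnb2, whose levels followed each other across clusters, shared none of these motifs in the window. The GC content of the 4 windows printed was 62.8% to 72.0%, against a median of 52.4% over all windows.

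The libraries held 13805 (Ncx1+/+), 12563 (Ncx1+/-) and 12525 (Ncx1-/-) barcodes with medians of 3460 to 3863 counts of unique molecular identifiers (UMIs), and 11231 to 12464 nuclei were kept. Slc8a1 itself stood at 11829, 6540 and 1033 CPM (counts scaled to a common total of counts) in the 3 genotypes, an order that matches the labels. Nuclei were grouped by clustering, with all 22 Eph and ephrin genes left out, and the clusters were named by fixed marker genes. The thresholds for naming were set after the data were seen. The cardiomyocyte class held 8816, 8176 and 8677 nuclei, the endocardial class (which may hold vascular endothelium too) 2089, 1872 and 1500, and the cushion-type class, a single sub-cluster of the endocardial lineage rich in cushion mesenchyme markers, 394, 240 and 63. The epicardial class held 200, 32 and 266 nuclei and the erythroid class 503, 471 and 101. Each genotype is 1 library, so no difference between genotypes could be tested. The 95% intervals below are exact and cover counting error only. A gene is said to stand apart in a genotype if its level there exceeded, or fell short of, each of the other 2 levels by a factor of 1.5 or more, with both ratio intervals excluding 1. It counts as measured where a class gave it 100 counts or more in all. This is a rule of size, not a test. Kept nuclei of different libraries shared 34 to 48 barcodes. The nuclear RNA Malat1 took 4.68%, 4.95% and 8.43% of counts in Ncx1+/+, Ncx1+/- and Ncx1-/-. Its part in the differences below was not tested.

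Across nucleus classes the members fell into different patterns. Epha3, a receptor for ephrin-A ligands, was at 348 CPM in cushion-type nuclei of Ncx1+/+, 326 in Ncx1+/- and 111 in Ncx1-/-. In endocardial nuclei it was at 19.6, 9.24 and 3.07 CPM, and in cardiomyocyte nuclei at 3.24, 2.34 and 1.99 CPM. The cushion-type level was 17.8 times the endocardial level in Ncx1+/+ (95% interval 15.2 to 20.9), 35.3 times in Ncx1+/- (27.3 to 46.0) and 36.3 times in Ncx1-/- (18.6 to 71.9). Every cushion-type value was above every endocardial one. Both classes come from the same 3 libraries, and the share of all genes with such a separation was not counted. In epicardial nuclei it was at 16.0, 26.6 and 17.4 CPM, from 11, 3 and 16 counts. Of all Epha3 counts, cushion-type nuclei held 56.6% in Ncx1+/+, 62.0% in Ncx1+/- and 5.77% in Ncx1-/-. Of the 381 counts in Ncx1-/-, cardiomyocyte nuclei held 17.8% and no other named class more than 5.77%. Most Epha3 counts of Ncx1-/- thus lay outside the 5 named classes, in mixed or unnamed nuclei. Of the mixed sub-clusters, 7 and 8 held 1 and 13 of these counts, and sub-cluster 14 had only 5 Ncx1-/- nuclei. The lower share therefore does not measure a loss from cushion-type nuclei alone. Epha3 was among the 10 leading genes of the cushion-type sub-cluster. It was left out of the grouping, but genes that vary with it were not, so these class differences are descriptions.

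Epha4, a receptor that binds both ephrin classes, was at 445, 369 and 354 CPM in cushion-type nuclei, 219, 205 and 209 CPM in cardiomyocyte nuclei, and 151, 109 and 54.4 CPM in endocardial nuclei of Ncx1+/+, Ncx1+/- and Ncx1-/-. The order cushion-type, cardiomyocyte, endocardial held in each library. Epha7, a receptor for ephrin-A ligands, had the same order, with 1451, 1112 and 1099 CPM in cushion-type, 606, 564 and 427 CPM in cardiomyocyte and 474, 323 and 237 CPM in endocardial nuclei. In epicardial nuclei Epha7 was at 440.0, 558 and 337 CPM. Epicardial nuclei held cardiomyocyte markers at 39.4%, 58.8% and 43.4% of the cardiomyocyte level (12 markers, summed level 8482 to 12923 CPM, none at 0), and their part in the epicardial values was not tested.

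Epha6, an EphA receptor known mainly from neurons, was a cardiomyocyte gene in these nuclei. It stood at 13.3, 13.1 and 4.07 CPM there, and at 0.846, 0.123 and 1.19 CPM in endocardial nuclei, which held 9, 1 and 7 counts. Cardiomyocyte nuclei held 96.9%, 98.7% and 88.0% of its counts. Cushion-type, epicardial and erythroid nuclei held at most 2 Epha6 counts in any library.

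Ephb4, the receptor of ephrin-B2, and Efnb2, the gene of that ligand, were both highest in endocardial nuclei. Ephb4 was at 129, 125 and 133 CPM in endocardial, 84.1, 84.9 and 132 CPM in cushion-type and 23.7, 23.9 and 23.0 CPM in cardiomyocyte nuclei. The endocardial level was 5.46 (5.00 to 5.95), 5.24 (4.76 to 5.78) and 5.81 (5.26 to 6.42) times the cardiomyocyte level. Efnb2 was at 338, 339 and 338 CPM in endocardial, 183, 208 and 253 CPM in cushion-type and 57.5, 53.9 and 40.1 CPM in cardiomyocyte nuclei. Its endocardial level was 5.88 (5.56 to 6.21), 6.29 (5.91 to 6.69) and 8.43 (7.87 to 9.04) times the cardiomyocyte level. In Ncx1-/- the cushion-type and endocardial levels of Ephb4 did not differ beyond counting error (ratio 0.987, 0.641 to 1.46).

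Efna5 encodes a ligand of EphA receptors. It was at 730, 676 and 412 CPM in endocardial, 618, 651 and 451 CPM in cushion-type, 255, 238 and 207 CPM in cardiomyocyte and 852, 540 and 784 CPM in epicardial nuclei. Its highest pooled level, 2679 CPM, was in an unnamed cluster of 77, 37 and 204 nuclei (cluster 16) led by Ppp2r2b, Bnc2, Lum and Col1a1. The same cluster held Epha3 at 276 CPM, next to the 325 CPM of the cushion-type sub-cluster.

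**Figure D1:**
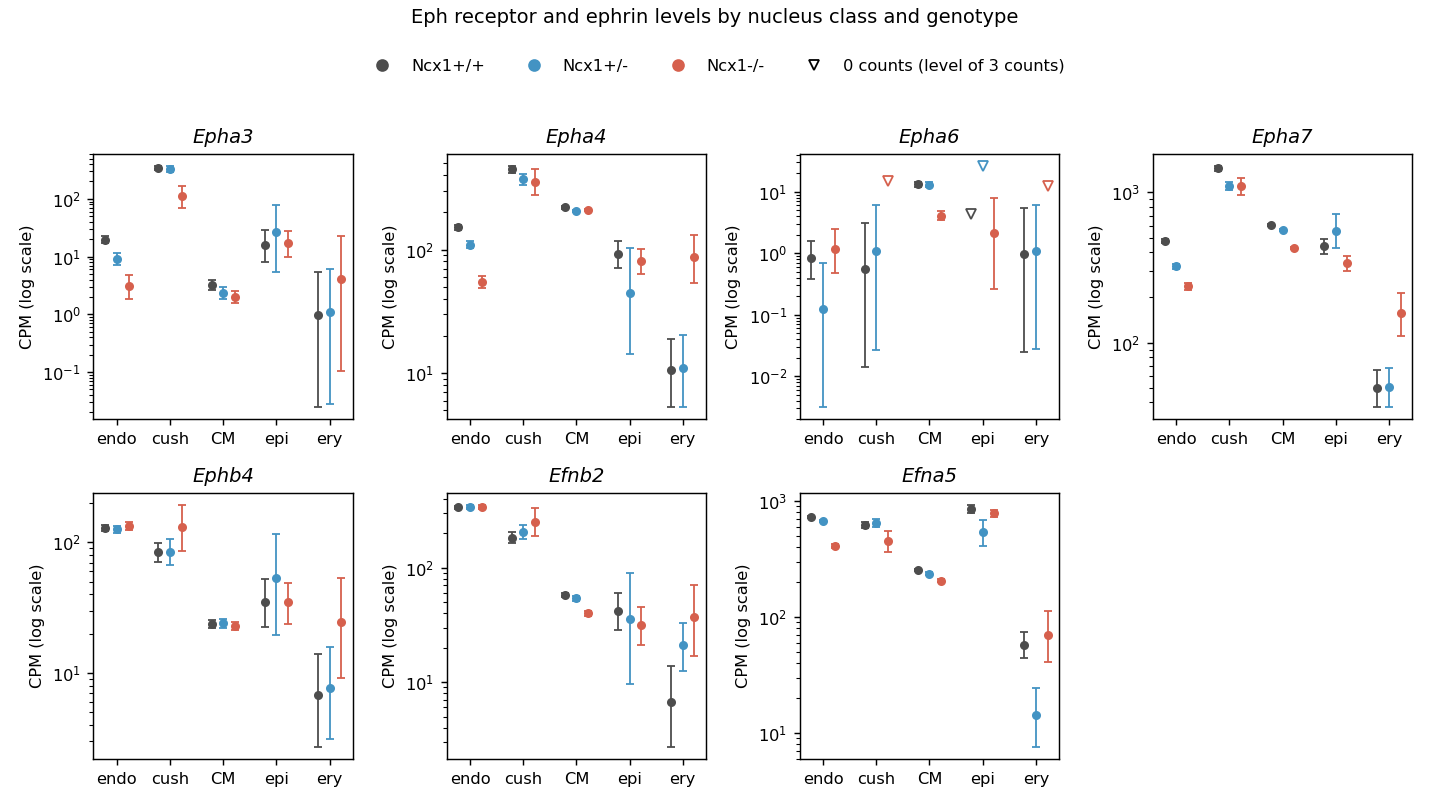
Level of each member in CPM (log scale) by class: endocardial (endo), cushion-type (cush), cardiomyocyte (CM), epicardial (epi) and erythroid (ery). Dots are the 3 libraries with 95% counting intervals, and open triangles mark 0 counts at the level of 3 counts. Epha3 stands highest in cushion-type nuclei, from 111 to 348 CPM, and the 3 endocardial values of Efnb2 lie together at 338 to 339 CPM.

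Within the endocardial lineage, pooled over libraries, the members were spread unevenly over sub-clusters. Epha3 was at 325 CPM in the cushion-type sub-cluster 4, 53.9 in sub-cluster 2 (led by Adam23, Adamts19 and Twist2), 51.2 in the 29 nuclei of sub-cluster 15 and 43.6 in sub-cluster 10 (led by Ptn, Slc24a4 and Negr1). It was at 1.2 to 20.1 CPM in the other endocardial sub-clusters. Epha4 was at 415 CPM in sub-cluster 4, 249 in sub-cluster 10 and 222 in sub-cluster 2, and lowest, at 24.3 CPM, in sub-cluster 3 (led by Cyp26a1 and Cav1). Epha7 was at 1320.3 CPM in sub-cluster 4 and 1203 in sub-cluster 10, and lowest, at 55.0 CPM, in sub-cluster 11. The libraries differ behind these pooled values. In sub-cluster 10, with 321, 163 and 12 nuclei, Epha7 was at 1254, 1199 and 186 CPM (ratio of Ncx1-/- to Ncx1+/+ 0.148, 0.0878 to 0.235), and Epha3 had 107, 21 and 0 counts. In Ncx1-/- Epha7 was higher in sub-clusters 2 (981 CPM) and 0 (597 CPM) than in sub-cluster 10. Efna5 peaked elsewhere, at 1083 CPM in sub-cluster 12 (led by Dkk2 and Ano1), and was lowest in sub-cluster 6, at 247 CPM.

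Ephb4 and Efnb2 varied least. Over the endocardial sub-clusters Ephb4 ranged from 96.9 to 192 CPM and Efnb2 from 256 to 436 CPM, and both were lower in the cushion-type sub-cluster, at 87.5 and 196 CPM. Sub-cluster 6, where Ephb4 was highest, had a median of 2275 UMIs, against 3142 to 5636 in the other endocardial sub-clusters.

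**Figure D2:**
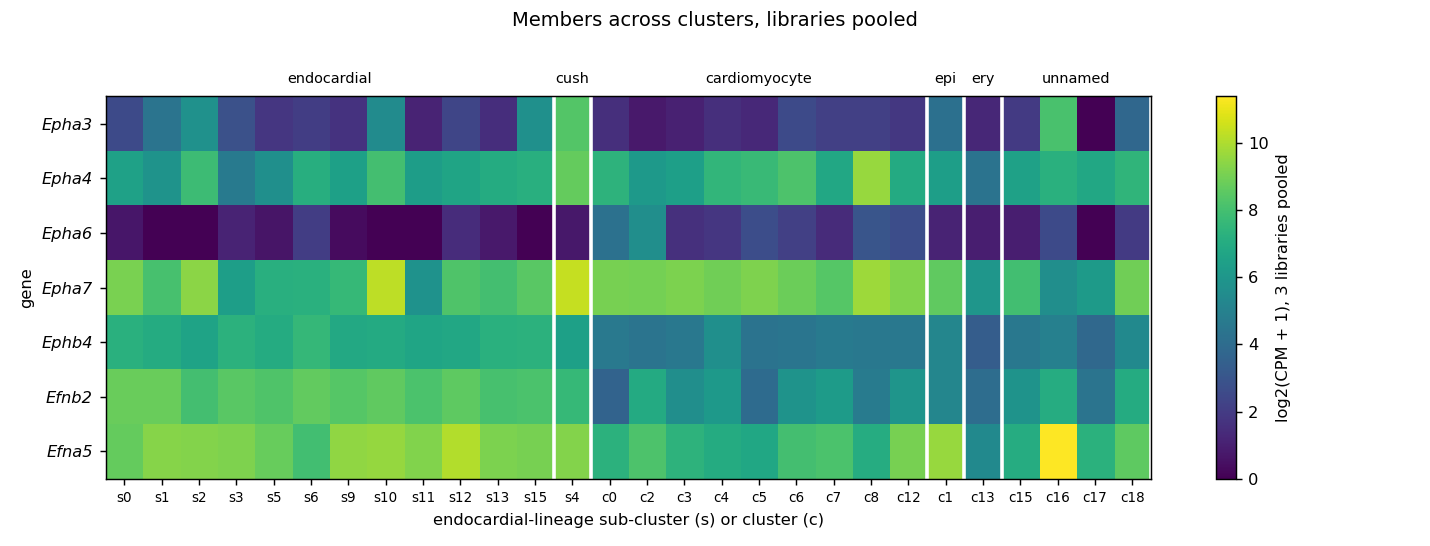
Pooled level of each member, as log2(CPM + 1) by colour, in the endocardial sub-clusters, the cushion-type sub-cluster and the other clusters (columns). Epha3 is highest in sub-cluster 4 (325 CPM) and cluster 16 (276 CPM), and Epha6 in cardiomyocyte clusters 2 (47.9 CPM) and 0 (17.8 CPM).

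In endocardial nuclei 3 of the 6 measured members stood apart lower in Ncx1-/- and 0 stood apart higher. Of all 10890 genes measured there, 441 (4.05%) stood apart lower and 788 (7.24%) higher. Epha3 was 6.38 times lower in Ncx1-/- than in Ncx1+/+ (ratio 0.157, 0.0911 to 0.254), from 208, 75 and 18 counts. Its log2 ratio of -2.67 was smaller in size with at least 1000 genes per nucleus (-1.75), at Leiden resolution 2 (-1.79) and with Eph and ephrin genes kept in the clustering (-1.19). Epha4 was 2.78 times lower (ratio 0.360, 0.318 to 0.406). Efna5 was 1.77 times lower (ratio 0.564, 0.539 to 0.591). For Epha3 and Epha4 the Ncx1+/- value lay between those of the other libraries, and for Efna5 it was near that of Ncx1+/+.

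The remaining 3 did not stand apart. Epha7 in Ncx1-/- was at 0.50 times its Ncx1+/+ level (0.470 to 0.530) but at 0.733 times its Ncx1+/- level. Ephb4 had a ratio of 1.03 (0.943 to 1.13) and Efnb2 of 1.00 (0.947 to 1.06). The median log2 ratio of Ncx1-/- to Ncx1+/+ was -0.91 over the 6 members and 0.10 over all measured genes. With edgeR TMM factors every endocardial log2 ratio of Ncx1-/- to Ncx1+/+ moved by -0.10, and with DESeq2 size factors by -0.12. The higher genes were then 49.3% and 47.4% of those standing apart, against 64.1% without these factors. The small log2 ratios of Efnb2 (0.00059) and Ephb4 (0.04) turned negative under both, so neither gene has a settled direction there. In Ncx1+/- 0 members stood apart in either direction, against 0.147% of genes higher and 0.129% lower.

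These class levels hold different mixtures of sub-clusters. Sub-cluster 12, the Efna5-rich one, held 341, 236 and 2 nuclei of Ncx1+/+, Ncx1+/- and Ncx1-/-, and sub-cluster 10, rich in Epha4 and Epha7, held 321, 163 and 12. Sub-cluster 5 (led by Kcne3, Grin2c and the hypoxia gene Ankrd37) held 18, 145 and 687 nuclei, and Epha4 was at 49.7 CPM and Epha7 at 145 CPM there, pooled. With the 5 sub-clusters that had at least 20 nuclei in every library (0, 2, 3, 6 and 9) weighted equally, Epha4 was at 101, 129 and 90.3 CPM and Epha7 at 372, 264 and 403 CPM. Weighted so, Efna5 was at 591, 543 and 431 CPM, neither Epha4 nor Efna5 stood apart, and the direction of Epha7 turned. Epha3 was at 17.7, 12.7 and 1.87 CPM, but 3 of the 5 sub-clusters had 0 counts of it in Ncx1-/-. With each 0 set to the level of 3 counts it was at 17.7, 15.4 and 13.5 CPM and did not stand apart either. Whether the class differences lie in the mixture or in the level per nucleus was not tested.

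**Figure D3:**
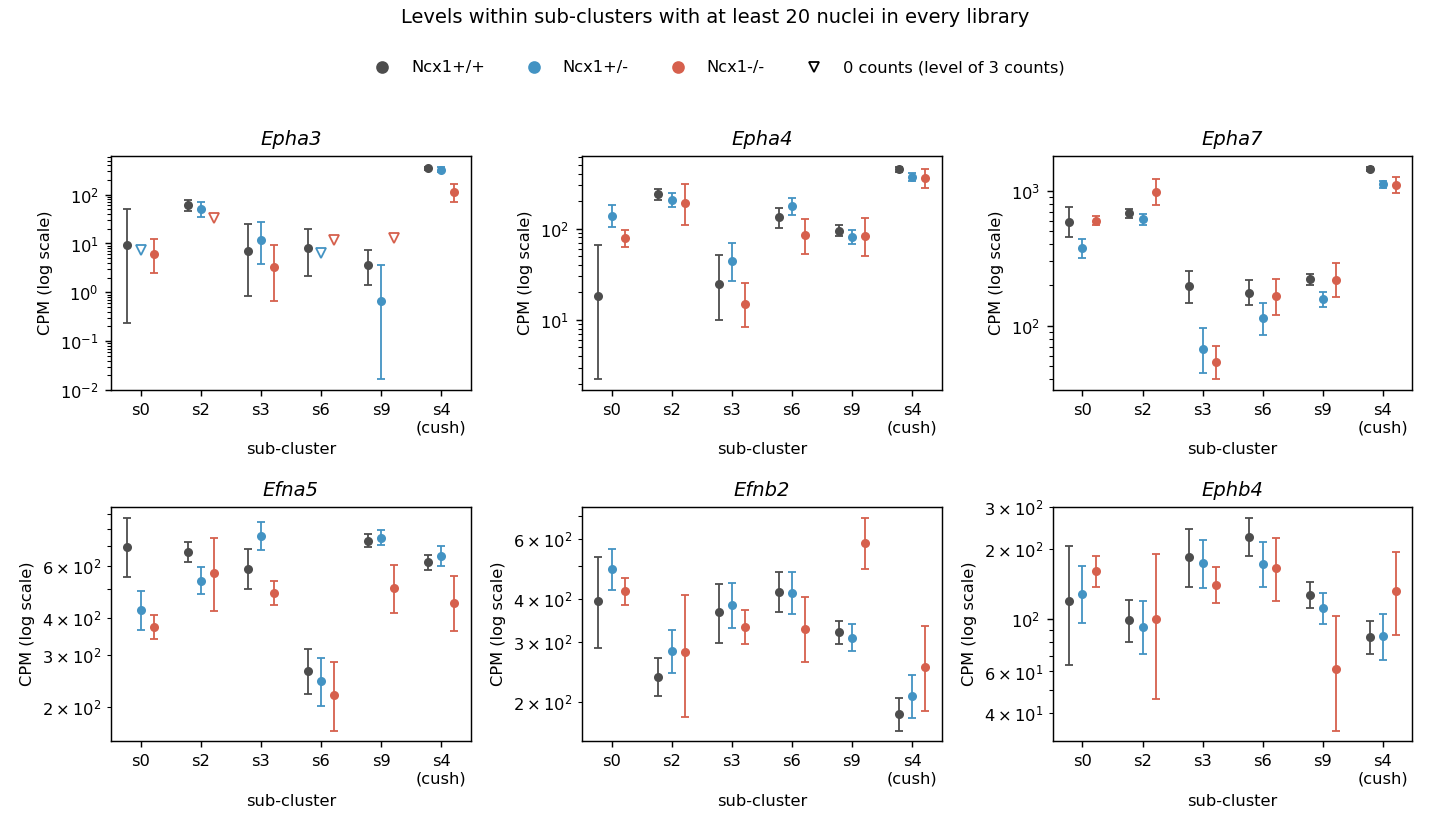
Level in CPM (log scale) of 6 members in the 5 endocardial sub-clusters with at least 20 nuclei in every library (s0, s2, s3, s6, s9) and in the cushion-type sub-cluster (s4). Dots are libraries with 95% counting intervals, and open triangles mark 0 counts at the level of 3 counts. In s9 Efnb2 is higher in Ncx1-/- (584 CPM) and Ephb4 lower (61.5 CPM), and in s4 Epha3 is lower (111 CPM).

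Within single sub-clusters Efna5 was lower in Ncx1-/- than in both other libraries in 4 of 5, with ratios to Ncx1+/+ of 0.534 to 0.829. The exception was sub-cluster 2, at 669, 536 and 569 CPM. Efna5 did not stand apart in any of them. In sub-clusters 3 and 9 both ratio intervals excluded 1. In sub-cluster 6 both included 1 (0.597 to 1.14 for Ncx1+/+, 0.643 to 1.25 for Ncx1+/-). In sub-cluster 0 the interval to Ncx1+/- included 1 (0.734 to 1.05). Epha3 in sub-cluster 2 was at 60.7 CPM in Ncx1+/+ (60 counts), 51.1 CPM in Ncx1+/- (34 counts) and 0 counts in the 20 Ncx1-/- nuclei, where 3 counts would be 33.5 CPM. Epha7 in sub-cluster 3 was at 195, 67.1 and 53.9 CPM, whereas in sub-cluster 2 it was at 681, 611 and 981 CPM. The ratio of Ncx1-/- to Ncx1+/+ for Epha7 thus ran from 0.276 to 1.44 over the 5 sub-clusters.

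The ligand and receptor of the ephrin-B2 pair parted in sub-cluster 9, which is led by Sema4d and Emcn and held 408, 363 and 40 nuclei. Efnb2 was there at 319, 308 and 584 CPM and stood apart higher in Ncx1-/- (ratio 1.83, 1.51 to 2.21), as did 2.39% of the 5896 genes measured in the sub-cluster. Ephb4 was at 127, 112 and 61.5 CPM and stood apart lower (ratio 0.483, 0.260 to 0.825, from 14 counts in Ncx1-/-), as did 3.02% of genes. In the other 4 sub-clusters neither gene stood apart.

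In cushion-type nuclei 1 of 6 measured members, Epha3, stood apart lower in Ncx1-/- and 0 higher, against 5.54% and 4.07% of the 5305 genes measured. The higher genes were 42.4% of those standing apart, and 28.5% and 29.4% with TMM and DESeq2 factors. Its ratio to Ncx1+/+ was 0.320 (0.199 to 0.489), from 633, 303 and 22 counts. The 13 cushion mesenchyme markers summed to 8421, 7656 and 5758 CPM in the same nuclei and none was at 0, and their part in the value was not tested. The ratio of Ncx1-/- to Ncx1+/+ was 0.797 (0.615 to 1.02) for Epha4 and 0.757 (0.656 to 0.870) for Epha7, and that to Ncx1+/- was 0.961 (0.732 to 1.25) and 0.988 (0.850 to 1.15). Efna5 was at 0.729 times its Ncx1+/+ level (0.581 to 0.905). Ephb4 and Efnb2 had ratios of 1.57 (0.992 to 2.38) and 1.38 (1.00 to 1.86). In Ncx1+/- 0 members stood apart, against 0.0943% of genes higher and 0.0943% lower.

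The 63 cushion-type nuclei of Ncx1-/- were sensitive to the grouping, and other groupings gave 2 to 103. Epha3 no longer stood apart at Leiden resolution 2 (2 nuclei, log2 ratio -2.48) or with nuclei gated on their own marker counts (103 nuclei, -0.62). With at least 1000 genes per nucleus, or Eph and ephrin genes kept in the clustering, its log2 ratio was -3.23 or -3.33. Epha7 kept its direction in 6 of 10 alternatives, Epha4 in 7 of 10 and Efna5 in 9 of 10, with log2 ratios of up to 0.85, 1.99 and 1.43 at resolution 2. The directions of these 3 genes in cushion-type nuclei are not settled by these data.

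In cardiomyocyte nuclei 1 of 7 members, Epha6, stood apart lower in Ncx1-/- and 0 higher, against 3.24% and 4.44% of 14132 genes. Its counts were 469, 391 and 139, and its ratio to Ncx1+/+ was 0.305 (0.251 to 0.370). Epha7 had a ratio of 0.705 (0.690 to 0.720), Efnb2 of 0.697 (0.651 to 0.747) and Efna5 of 0.812 (0.787 to 0.838). These 3 ratios exclude 1 without reaching the fold of 1.5. Epha3, from 114, 70 and 68 counts, had a ratio of 0.615 (0.448 to 0.837) to Ncx1+/+ and of 0.852 (0.601 to 1.21) to Ncx1+/-, so it did not stand apart. Epha4, at 0.953 (0.922 to 0.984), and Ephb4, at 0.968 (0.877 to 1.07), lay near 1. In Ncx1+/- 0 members stood apart, against 0.212% of genes higher and 0.127% lower.

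The 9 cardiomyocyte clusters showed where these differences lay. Epha6 was highest in cluster 2, which is outflow tract-like by Tdgf1, Isl1 and Nrp2 among its leading genes. It was there at 63.3, 70.8 and 7.41 CPM, 8.54 times lower in Ncx1-/- than in Ncx1+/+ (ratio 0.117, 0.0700 to 0.186), and stood apart lower, as did 5.62% of the 8808 genes measured. The next highest cluster was cluster 0, which is atrioventricular canal-like by Bmp2, Rspo3, Tbx2 and Tbx3. Epha6 was there at 24.4, 19.1 and 9.85 CPM and stood apart lower, as did 3.85% of genes. The 2 clusters held 826, 772 and 710 nuclei (cluster 2) and 1635, 1563 and 1639 nuclei (cluster 0), so their sizes were close across genotypes.

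Epha4 went the other way in cluster 2. It was at 39.2, 62.7 and 116 CPM, with Ncx1+/- between the other libraries, and stood apart higher in Ncx1-/- (ratio 2.96, 2.39 to 3.69), as did 4.5% of genes. In cluster 8, where its level was highest (led by Negr1, Dcc and Fgf10), Epha4 was at 892, 871 and 659 CPM (ratio 0.739, 0.698 to 0.784) and did not stand apart. Over the 9 clusters Epha4 was lowest in Ncx1-/- in 4 and highest in 3. The near equal class levels of Epha4 thus hold differences of both signs.

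Efnb2, at 149, 142 and 78.9 CPM in cluster 2, stood apart lower there (ratio 0.530, 0.449 to 0.626). It also stood apart lower in cluster 12 (led by Fat3 and Fgf10), at 69.0, 58.5 and 34.7 CPM, as did 3.27% of genes. Epha7 was lower in Ncx1-/- than in both other libraries in 8 of 9 clusters. Only in cluster 5 (led by Rxfp1 and Slit2), at 714, 627 and 416 CPM, did it stand apart lower (ratio 0.582, 0.541 to 0.626), as did 4.94% of genes. The exception was cluster 4, at 474, 488 and 488 CPM, which had the lowest median depth of the cardiomyocyte clusters (2110 UMIs). Ephb4 stood apart in 0 of 9 clusters.

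**Figure D4:**
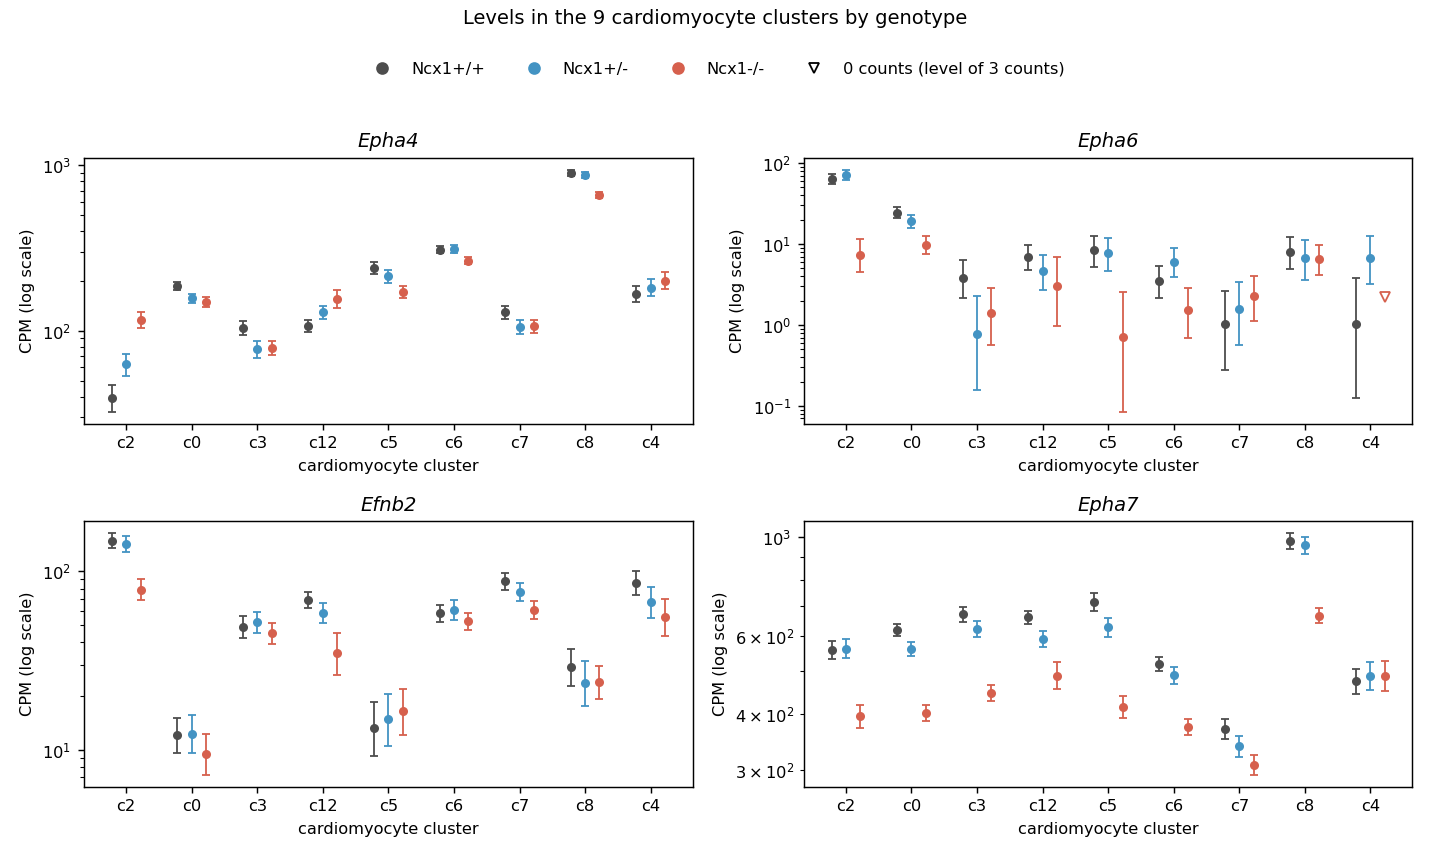
Level in CPM (log scale) of Epha4, Epha6, Efnb2 and Epha7 in the 9 cardiomyocyte clusters. Dots are libraries with 95% counting intervals, and the open triangle marks 0 counts at the level of 3 counts. In the outflow tract-like cluster 2, Epha4 is higher in Ncx1-/- (116 CPM) than in Ncx1+/+ (39.2 CPM), while Epha6 (7.41 CPM) and Efnb2 (78.9 CPM) are lower.

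In epicardial nuclei 3 members were measured and none stood apart: the ratio of Ncx1-/- to Ncx1+/+ was 0.874 (0.616 to 1.24) for Epha4, 0.767 (0.652 to 0.901) for Epha7 and 0.920 (0.824 to 1.03) for Efna5. In erythroid nuclei only Epha7 reached 100 counts. It was at 50.2, 50.7 and 157 CPM and stood apart higher in Ncx1-/- (ratio 3.12, 2.0 to 4.83), as did 5.38% of genes. In those nuclei the 12 cardiomyocyte markers, none at 0, summed to 5151, 5842 and 12254 CPM, or 24.0%, 26.6% and 53.5% of the cardiomyocyte level, and their part in the Epha7 value was not tested.

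For Epha4, Efna5 and Efnb2 the share of endocardial nuclei with a UMI gave the same picture after each nucleus was thinned to 2000 UMIs. In endocardial nuclei 1989, 1734 and 1377 were deep enough, and 100, 138 and 123 were left out. Epha4 was then detected in 19.5%, 15.1% and 7.55% of Ncx1+/+, Ncx1+/- and Ncx1-/- nuclei (31.5%, 23.6% and 11.7% before thinning), against 1.43%, 2.75% and 11.4% of erythroid nuclei. Those erythroid nuclei numbered 210, 182 and 35, with median depths before thinning of 1856, 1769 and 1669 UMIs. The last share is 4 of 35 nuclei (95% exact binomial interval 3.20 to 26.7), in nuclei with cardiomyocyte markers at 53.5% of the cardiomyocyte level, against 10.6% in endocardial nuclei of the same library. It therefore gives no usable background for Epha4 in endocardial nuclei. With cardiomyocyte free RNA subtracted, the endocardial log2 ratio of Epha4 (Ncx1-/- to Ncx1+/+) went from -1.48 to -2.02. In the endocardial class the 12 markers reached 7.79%, 8.38% and 10.6% of their cardiomyocyte level, most in Ncx1-/-. The subtraction thus lowers Ncx1-/- most and could not have ended the call. The part of free RNA in the Epha4 difference was therefore not tested. Efna5 was detected in 61.8%, 59.7% and 43.5% of endocardial nuclei (78.3%, 71.3% and 55.8% before thinning), against 5.24%, 1.10% and 14.3% of erythroid nuclei. Efnb2 was detected in 44.1%, 42.8% and 42.8% (67.2%, 62.0% and 59.1% before thinning), where median depth was 4845, 4046 and 3530 UMIs. In erythroid nuclei it was detected in 0.476%, 2.75% and 8.57%. The Ncx1-/- erythroid shares of Efna5 and Efnb2 are 5 and 3 of the same 35 nuclei (intervals 4.81 to 30.3 and 1.80 to 23.1). They give no usable background either. Epha3 was detected in 23.0%, 21.8% and 12.3% of thinned cushion-type nuclei (29.4%, 25% and 15.9% before thinning), against 0.532%, 0.570% and 0.381% of thinned cardiomyocyte nuclei. The thinned Ncx1-/- cushion-type share is 7 of 57 nuclei. Its interval of 5.08 to 23.7 holds the shares of both other libraries, so these shares do not separate the genotypes. Median depths before thinning were 4226, 3713 and 2860 UMIs in cushion-type and 3714, 3374 and 3570 in cardiomyocyte nuclei.

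Ephb4 and Efnb2, the venous receptor and the arterial ligand, were found in the same endocardial nuclei. After thinning, 9.80% (95% exact binomial interval 8.53 to 11.2), 9.80% (8.44 to 11.3) and 8.93% (7.48 to 10.6) of nuclei held both. The product of the single shares was 9.78%, 9.33% and 9.93%, inside each interval. Epha4 and Epha7 were found together in 7.19% (6.09 to 8.41), 4.38% (3.47 to 5.46) and 2.47% (1.72 to 3.43) of endocardial nuclei, above the products of 4.95%, 2.92% and 1.21% in each library. In cushion-type nuclei both were found in 33.4%, 25.8% and 26.3%, with products of 30.7%, 26.0% and 21.3% inside the intervals. Free RNA can add to both shares of a pair, and its part was not tested. The endocardial class also mixes sub-clusters. Pooled over libraries, sub-cluster 10 was high in both Epha4 and Epha7 and sub-cluster 3 low in both. The part of this mixture was not tested either. In thinned erythroid nuclei Epha7 alone was seen in 6.19%, 9.34% and 34.3% and Ephb4 in 1.43%, 1.65% and 2.86%. The Ncx1-/- shares there are 12 and 1 of 35 nuclei.

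Over 70 sums of a cluster and library with at least 50 nuclei (28 clusters or sub-clusters), the level of Ephb4 as log2(CPM + 1) followed that of Efnb2 with Pearson r = 0.86, and Epha4 followed Epha7 with r = 0.65. These sums share libraries and depth, so the coefficients are descriptions. They also mix cardiomyocyte and endocardial nuclei. In Ncx1+/+ the endocardial level was 5.46 times the cardiomyocyte level for Ephb4 and 5.88 times for Efnb2. How much of r comes from this class difference was not tested. The 3 genes most like each member were Elk3, Rgs3 and Bmpr2 for Ephb4 (r = 0.94 each), Pdia5, Fbn1 and Rin3 for Efnb2 (0.91 each), and Dock4, Gli3 and Rbms3 for Efna5 (0.87 to 0.90). They were Klhl29, Ntng1 and Dnm3os for Epha3 (0.70 to 0.78), Kif13a, Clasp1 and Tnrc18 for Epha4 (0.65 to 0.69), Satb1, Plekha6 and Pde4a for Epha7 (0.72 to 0.76), and Sel1l3, Adcy8 and Dok5 for Epha6 (0.70 to 0.73).

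Of the other 15 Eph and ephrin genes, 12 were measured in cardiomyocyte nuclei, and 2 of these, both receptors, stood apart lower in Ncx1-/- and 0 higher, against 3.24% and 4.44% of all genes. Ephb1 was at 39.2, 45.1 and 24.2 CPM (ratio 0.618, 0.566 to 0.674). Epha5 was at 6.25, 4.71 and 3.07 CPM (ratio 0.492, 0.386 to 0.623), a call lost with TMM or DESeq2 factors. Epha10, at 0.966, 1.64 and 0.820 CPM, stood apart higher in Ncx1+/- on 111 counts in all, as did 0.212% of genes. The ligand gene Efna1 had a ratio of 1.54 (1.34 to 1.77) in cardiomyocyte nuclei, at 9.94, 12.1 and 15.3 CPM, and did not stand apart from Ncx1+/-. In endocardial nuclei 7 were measured (Epha2, Epha5, Ephb2, Ephb3, Efna1, Efna4 and Efnb3) and 0 stood apart, against 7.24% of genes higher and 4.05% lower, with Efna1 at 36.0, 41.9 and 50.8 CPM. In epicardial nuclei Ephb1 was at 309, 319 and 194 CPM and stood apart lower in Ncx1-/-, as did 1.4% of 4013 genes. In cushion-type and erythroid nuclei 0 of the 15 were measured.

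Of 30 genes that act with Eph receptors, as signal carriers or partners, 28 were measured in endocardial nuclei, and 1, the Rac-inactivating gene Chn1, stood apart lower in Ncx1-/-, at 405, 395 and 252 CPM. That is near the 4.05% of all genes. The list's median log2 ratio was -0.14, against 0.10 over all measured genes. In cushion-type nuclei 6 of 24 stood apart lower and 0 higher, against 5.54% and 4.07% of all genes: Sipa1l1 at 761, 696 and 349 CPM, Chn1 at 312, 291 and 147, Chn2 at 255, 278 and 86.1, Kalrn at 334, 291 and 172, Nck2 at 220, 231 and 111, and Tiam1 at 119, 151 and 65.8. They rest on 13 to 69 counts in Ncx1-/-, and the list's median was -0.14, against -0.03 over all genes. The list was not counted under the other groupings of nuclei, which gave 2 to 103 cushion-type nuclei of Ncx1-/-. Whether the 6 calls hold there is thus not known. Chn1 and Chn2 encode chimaerins, which act below EphA4. In cardiomyocyte nuclei 1 of 29, Chn2, stood apart lower, at 14.0, 13.4 and 7.0 CPM, near the 3.24% of all genes.

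Efnb2 is an arterial marker and Ephb4 a venous one, so fixed lists of both identities were set beside them. In endocardial nuclei 3 of 13 measured arterial genes stood apart higher in Ncx1-/- (Sox17, Gja4 and Jag2) and 2 lower, against 7.24% and 4.05% of all genes. The lower ones were Hey2, at 66.3, 61.7 and 38.7 CPM, and Unc5b, at 83.8, 74.5 and 47.4 CPM. All 4 measured venous genes stood apart higher: Nr2f2 at 98.2, 112 and 248 CPM, Aplnr at 1.97, 4.19 and 10.7, Flt4 at 28.9, 26.7 and 50.9, and Nrp2 at 106, 96.1 and 166. Efnb2 and Ephb4 themselves did not stand apart in that class. Sox17 and Gja4 were among the leading genes of cluster 10 of the endocardial lineage. That cluster held 174, 279 and 669 nuclei of Ncx1+/+, Ncx1+/- and Ncx1-/-. These lists were not set out with sub-clusters weighted equally or under the other groupings of nuclei, and the part of the mixture in them was not tested. In the other classes the arterial list had 2 genes higher of 10 in cardiomyocyte nuclei (Gja4 and Gja5) and 1 of 5 in cushion-type nuclei (Hey2), where 4.44% and 4.07% of all genes were higher. The venous list had Stab2 higher and Nrp2 lower of 3 in cardiomyocyte nuclei (4.44% and 3.24% of all genes), and Nr2f2 higher as the 1 gene measured in cushion-type nuclei.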

How the data were processed

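The deposited values are whole-number UMI counts per gene and barcode, not normalised by the authors. Cell Ranger 6.1.0 and build mm10 were used per the submitters' processing notes, whereas the file headers name version 9.0.0. The sources used here do not state whether counts include introns. Barcodes with at least 500 genes and at most 5% mitochondrial counts were kept, and the 8% with the highest Scrublet scores in each library (1098, 1038 and 1094 nuclei) were removed. Nuclei were clustered with scanpy 1.11.5 (Leiden resolution 1, no correction between libraries, all 22 Eph and ephrin genes left out). Clusters were named by fixed markers at a score of 0.4 or more, and nuclei of endocardial lineage were then divided further. Sub-clusters with cardiomyocyte, epicardial or erythroid markers at 20% or more of those classes' level (3 sub-clusters) were left out as mixed, and a cushion score of 0.6 made a sub-cluster cushion-type. These thresholds were set after the data were seen. Another 4 clusters stayed unnamed.

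Raw counts were summed per class and library and scaled to CPM. Intervals are exact (conditional for ratios, Poisson for levels, Clopper-Pearson for shares, 95%), and the level that 3 counts would give stands for a count of 0. The rule of size was tried on simulated Poisson counts drawn from 1 pooled profile per class. These hold counting error only, without variation between hearts or libraries, so they cannot show how often the rule errs between libraries. Effective library sizes from edgeR 4.0.16 (TMM) and DESeq2 1.42.0 served as alternatives. GENCODE M21 held 98.7% of the gene identifiers. The members and lists were chosen with earlier results of these data known. Named are all 7 members, other Eph and ephrin genes with at least 100 counts in a class, genes of the signalling, arterial and venous lists that stood apart, and the 3 genes of most similar pattern per member, among genes with at least 500 counts.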

Additional observations from a re-analysis of the deposited data

Results flagged for a closer look

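For 3 members the Ncx1-/- library stood apart in opposite directions in different groups of nuclei, and the difference between those groups was not tested. Epha4 was lower in endocardial nuclei (ratio to Ncx1+/+ 0.360) and higher in the outflow tract-like cardiomyocyte cluster 2 (2.96). Efnb2 was lower in cardiomyocyte clusters 2 (0.530) and 12 (0.504) and higher in endocardial sub-cluster 9 (1.83). Epha7 was lower in cardiomyocyte cluster 5 (0.582) and higher in erythroid nuclei (3.12), where the cardiomyocyte markers were at 53.5% of the cardiomyocyte level in Ncx1-/- against 24.0% in Ncx1+/+.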

How the results depend on the processing

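No paired analysis was possible because each genotype is 1 library, and no library could be left out. With sub-clusters weighted equally, 1.0 member (Epha3) was lower in endocardial nuclei in place of 3 (log2 ratios of Epha4 -0.17, Efna5 -0.46, Epha7 0.12), and 0.0 with 0 counts set to the level of 3 counts (Epha3 -0.39). Under equal weighting a gene was called by the fold of 1.5 alone, without intervals. The call of Epha3 in endocardial nuclei also ended when sub-cluster 2 was counted as cushion-type (-2.30). Both the floor and that regrouping were chosen after seeing the data. Epha3, Epha4 and Efna5 each kept the call in 12 of 14 alternatives, and Epha6 in cardiomyocyte nuclei in 9 of 9. Not all of these could end an endocardial call. TMM and DESeq2 factors lowered every endocardial log2 ratio of Ncx1-/-, by -0.10 and -0.12 to Ncx1+/+ and by -0.084 and -0.091 to Ncx1+/-. Subtracting free RNA could not have ended the call of Epha4. For Epha4 and Efna5 both equal weightings gave the same values. The tally of Epha3 holds the plain equal weighting, called by fold alone. In cushion-type nuclei 0.0 members were lower at Leiden resolution 2 and 0.0 with gated nuclei. Members standing apart higher there numbered 1 without the doublet filter, 1 with at least 1000 genes, 3 at resolution 2, 2 with Eph and ephrin genes kept, and 1 with cardiomyocyte free RNA subtracted. Those settings left 43, 25, 2, 22 and (in the last) 63 Ncx1-/- nuclei. Efnb2 had 0 counts at resolution 2 and so no ratio.

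Over all genes, a 2-fold rule left 113 lower and 147 higher in cardiomyocyte, 179 and 176 in endocardial, and 140.0 and 92 in cushion-type nuclei. Endocardial genes standing apart higher were 512 with DESeq2 size factors. Cushion-type genes standing apart lower were 175 with at least 1000 genes, 8 at resolution 2 and 183 with Eph and ephrin genes kept. Those higher were 59 at resolution 2, 480.0 with gated nuclei, 397 at 10 counts or more and 418 with no minimum. Other Eph and ephrin genes standing apart were 1 in cardiomyocyte and 1 in endocardial nuclei with TMM or DESeq2 factors. Signalling partners in endocardial nuclei were 3 with DESeq2 factors, and arterial genes in cushion-type nuclei 2 at 10 counts or more. The causes were not tested.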
